A study of Mus musculus with 18 samples.

Results

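The 10 genes described here are *Cdkn2a*, *Cdkn2b*, *Cdkn2c* and *Cdkn2d*, which encode the INK4 family of cell cycle inhibitors, *Ccnd1*, *Ccnd2* and *Ccnd3*, which encode the D cyclins, *Cdk4* and *Cdk6*, which encode the kinases that D cyclins bind, and *Rb1*, which encodes the retinoblastoma protein. They were chosen by name, for their place in 1 pathway, from the 35275 genes of the deposited count table. All 10 were found and all 10 passed the filter on low counts.

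D cyclins bind CDK4 or CDK6, and the complexes phosphorylate RB1, which then releases E2F transcription factors and lets the cell enter S phase. INK4 proteins bind CDK4 and CDK6 and block this step. *Cdkn2a* is unusual in that a separate first exon gives rise to a second protein, ARF (p19 in the mouse), which stabilizes p53, so that the locus feeds both the RB1 and the p53 arm of tumor suppression.

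Malignant peripheral nerve sheath tumors (MPNSTs) were raised in wild-type 129 Sv/Jae mice with adenovirus injected into the sciatic nerve. The virus carried Cas9 under the CMV promoter, which is active in most cell types, and guide RNAs against *Nf1* together with either p53 (*Trp53*) or the p16 and p19 products of *Cdkn2a*. Both genotypes thus share the loss of *Nf1* (*Nf1*/*p53* dKO, labelled Nf1-/-;p53-/-, and *Nf1*/*Cdkn2a* dKO, labelled Nf1-/-;Cdkn2a-/-). RNA-seq was run on 18 untreated cultures, 3 from each of 6 lines, and every genotype had 3 lines that each came from 1 tumor. The age of the mice is not given in the labels, the lines were passaged repeatedly to leave tumor cells, and lines without these deletions are not analysed here. The comparison therefore shows how the genotypes differ from each other and not how either differs from normal cells.

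Libraries held 19560535 to 28312207 counts (median 23149777). Levels are given in CPM, counts relative to library size after TMM scaling, for the summed cultures of a line unless a culture is named. The line is the replicate of a genotype, since its 3 cultures share a tumor. *Trp53* had 94.1, 67.5 and 58.7 CPM in *Nf1*/*p53* dKO and 247, 246 and 185 CPM in *Nf1*/*Cdkn2a* dKO lines (log2 fold change 1.62, standard error 0.23, adjusted p = 0.0361, edgeR's quasi-likelihood test), while *Nf1* had 70.0, 33.5 and 27.7 against 12.7, 38.3 and 16.2 CPM. The label calls the cells mesenchymal, and all 6 mesenchymal markers (*Vim*, *Pdgfra*, *Pdgfrb*, *Col1a1*, *Col1a2*, *Thy1*) exceeded 1 CPM in every line. None of 5 Schwann cell markers did so. *Sox10* stayed at most at 0.0990 CPM, while 4 of the list reached 1 CPM in at least 1 line, with *Ngfr* at 64.3 CPM in *Nf1*/*p53* line 2. Of 5 muscle progenitor markers, 4 reached 1 CPM in at least 1 line. Their sum was 25.8 to 319 CPM in *Nf1*/*p53* dKO and 0.0288 to 0.529 CPM in *Nf1*/*Cdkn2a* dKO lines, with *Pax7* at or near 0. The summed markers of immune cells (2.38 to 7.44 CPM) and endothelial cells (0.641 to 2.02 CPM) were low in all lines, and those of epithelium ranged from 2.67 to 739 CPM through *Krt8* and *Krt18*. *Nf1*/*p53* line 3 stood apart from the other lines, with *Myod1* at 204 CPM and with the highest or lowest level of the 6 lines for 55.3% of 10309 genes. In cultures of whole lines, fewer cells of a kind and less RNA per cell cannot be told apart.

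*Cdkn2a* (ENSMUSG00000044303) lies on chromosome 4 of GRCm38, from 89274471 to 89294653 on the minus strand, next to *Cdkn2b* (89306299 to 89311039). Of the 1172 exonic bases of *Cdkn2a* in the GENCODE M21 annotation, 277 belong to the INK4A transcript alone, 320 to the ARF transcript alone and 575 to both. The deposited table holds 1 count per gene, so a *Cdkn2a* count adds INK4A and ARF reads, and a read from an edited allele counts as any other. The transcript starts lie 12461 bases apart, and the start of *Cdkn2b* lies 16386 bases beyond that of ARF. The 3 promoters of this locus are shown because the counts cannot separate the first pair and the third belongs to the neighbor that was not targeted, and those of *Cdk4* and *Cdk6* because the one varied little between lines and the other divided the genotypes. Sequences are from RefSeq on GRCm38.p6, 250 bases before to 50 after the start, 5′ to 3′ on the strand of the gene.

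*Cdkn2a*, ARF start, chr4:89294570-89294869, minus strand: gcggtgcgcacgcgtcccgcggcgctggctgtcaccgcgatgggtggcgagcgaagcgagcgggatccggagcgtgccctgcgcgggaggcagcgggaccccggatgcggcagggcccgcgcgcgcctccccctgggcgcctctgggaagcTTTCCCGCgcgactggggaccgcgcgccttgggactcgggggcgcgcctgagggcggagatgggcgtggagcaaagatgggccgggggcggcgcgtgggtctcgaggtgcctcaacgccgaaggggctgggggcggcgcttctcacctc
*Cdkn2a*, INK4A start, chr4:89282143-89282442, minus strand: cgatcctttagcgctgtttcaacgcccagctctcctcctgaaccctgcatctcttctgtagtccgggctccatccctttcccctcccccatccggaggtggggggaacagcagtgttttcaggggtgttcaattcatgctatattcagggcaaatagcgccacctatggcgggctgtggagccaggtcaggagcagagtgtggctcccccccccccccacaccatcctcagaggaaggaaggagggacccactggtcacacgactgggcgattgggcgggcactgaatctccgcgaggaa
*Cdkn2b*, chr4:89310983-89311282, minus strand: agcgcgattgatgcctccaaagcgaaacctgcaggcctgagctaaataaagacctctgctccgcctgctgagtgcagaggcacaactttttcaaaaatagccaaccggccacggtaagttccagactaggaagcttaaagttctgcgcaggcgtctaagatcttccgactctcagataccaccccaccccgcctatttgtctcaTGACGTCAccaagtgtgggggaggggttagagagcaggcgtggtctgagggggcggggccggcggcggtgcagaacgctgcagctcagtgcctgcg
*Cdk4*, chr10:127063285-127063584, plus strand: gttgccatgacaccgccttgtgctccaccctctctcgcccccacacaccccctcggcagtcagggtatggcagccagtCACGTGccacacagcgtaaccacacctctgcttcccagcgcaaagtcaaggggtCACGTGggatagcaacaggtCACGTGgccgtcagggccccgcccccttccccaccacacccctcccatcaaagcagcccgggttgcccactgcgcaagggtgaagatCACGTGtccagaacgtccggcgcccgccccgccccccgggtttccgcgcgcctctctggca
*Cdk6*, chr5:3343643-3343942, plus strand: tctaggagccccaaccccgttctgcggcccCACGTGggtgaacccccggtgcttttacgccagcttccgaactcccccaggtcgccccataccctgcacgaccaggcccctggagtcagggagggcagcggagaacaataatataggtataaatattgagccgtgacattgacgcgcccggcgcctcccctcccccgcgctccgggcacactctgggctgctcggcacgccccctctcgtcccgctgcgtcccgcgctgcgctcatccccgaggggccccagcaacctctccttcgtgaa

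Capitals mark matches, on either strand, to an E2F motif (TTTCCCGC, TTTCGCGC, TTTGCCGC or TTTGGCGC), the E-box CACGTG, the AP-1 motif TGANTCA or the cyclic AMP response element TGACGTCA. The ARF promoter held 1 E2F motif, present in 2.26% of 32851 promoters in the same table, and the INK4A promoter held none of the 4 motif types. The promoter of *Cdkn2b* held 1 cyclic AMP response element (1.79% of promoters). *Cdk4* had 4 E-boxes and *Cdk6* had 1, against 7.15% of promoters with any and 0.0883% with at least 3. The AP-1 motif, in 7.81% of promoters, was in none of these 5 windows, and no matches overlapped. The letters are a description of these windows and not of binding. Of the 10 genes, 7 have a promoter in the table. *Ccnd1*, *Ccnd2* and *Rb1* have none there.

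Transcript levels of *Cdkn2a* did not follow the deletion named in the genotype. *Cdkn2a* had 363, 279 and 42.9 CPM in *Nf1*/*p53* dKO and 169, 392 and 285 CPM in the lines edited at the gene itself. Over the 9 cultures of each genotype it ranged from 40.1 to 395 and from 127 to 414 CPM. The genotypes overlapped, and the lowest level belonged to an *Nf1*/*p53* dKO line, number 3, which stood 7.48-fold below the mean of the other two lines of its genotype. Between genotypes the log2 fold change, positive where *Nf1*/*Cdkn2a* dKO was higher, was 0.30 (standard error 0.71, 95% interval −1.41 to 2.01, adjusted p = 0.83), and it was −0.18 without *Nf1*/*p53* line 3.

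*Cdkn2b* encodes INK4B (p15), an inhibitor induced by TGF-β. Its levels were 50.5, 45.6 and 6.16 CPM in *Nf1*/*p53* dKO and 68.0, 69.1 and 63.5 CPM in *Nf1*/*Cdkn2a* dKO lines. The genotypes did not overlap at the level of lines, nor did their cultures, at 5.67 to 55.3 against 60.1 to 78.9 CPM. The *Nf1*/*Cdkn2a* dKO lines lay within 1.09-fold of each other, while the *Nf1*/*p53* dKO lines spanned 8.21-fold. The log2 fold change of 0.97 (standard error 0.67, 95% interval −0.64 to 2.58) did not pass the test (adjusted p = 0.437), and without *Nf1*/*p53* line 3 it was 0.48 (adjusted p = 0.118).

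*Cdkn2c* (INK4C, p18) and *Cdkn2d* (INK4D, p19INK4D, a different protein from ARF) showed the opposite order among the *Nf1*/*p53* dKO lines. *Cdkn2c* had 48.6, 51.4 and 110.9 CPM in that genotype and 62.2, 42.9 and 69.9 CPM in *Nf1*/*Cdkn2a* dKO lines. *Cdkn2d* had 14.3, 16.8 and 33.7 CPM against 18.3, 14.4 and 25.4 CPM. For both genes line 3 was the highest *Nf1*/*p53* dKO line, 2.22-fold and 2.16-fold above the mean of the other two, and line 3 was also the highest of the *Nf1*/*Cdkn2a* dKO lines. The genotypes overlapped, with a log2 fold change of −0.27 for *Cdkn2c* (standard error 0.37) and −0.16 for *Cdkn2d* (standard error 0.39), at adjusted p = 0.698 and 0.834. Without *Nf1*/*p53* line 3 these were 0.23 and 0.32.

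**Figure D1:**
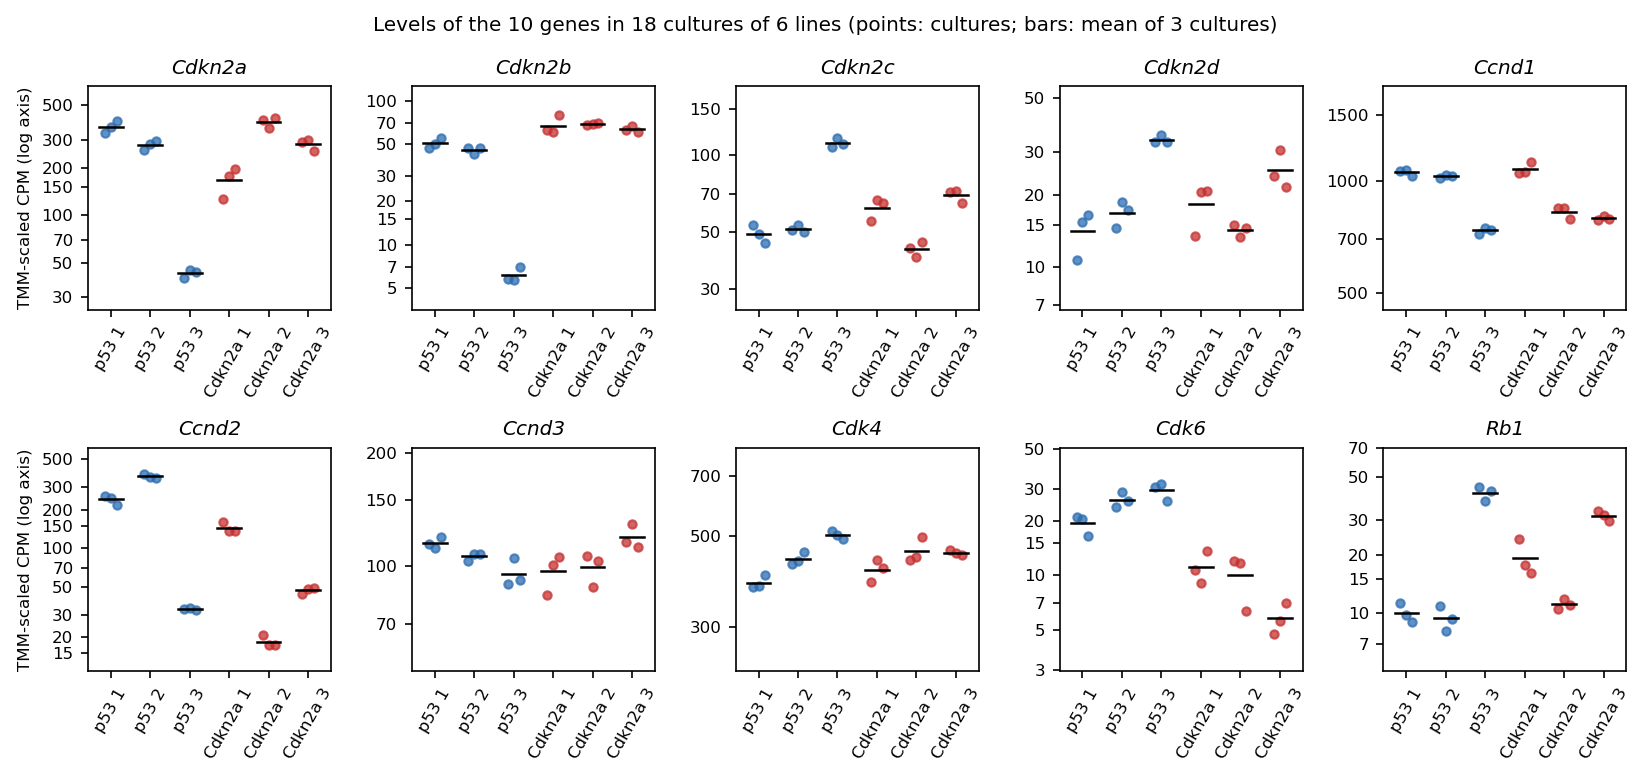
Levels of the 10 genes in CPM after TMM scaling (vertical log axes) in each culture (points) of the 3 *Nf1*/*p53* dKO lines (blue) and the 3 *Nf1*/*Cdkn2a* dKO lines (red), with the mean of 3 cultures as a bar. *Cdk6* lay between 16.5 and 31.7 CPM in the *Nf1*/*p53* dKO cultures and between 4.71 and 13.6 CPM in the *Nf1*/*Cdkn2a* dKO cultures.

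Levels of different genes can be compared only per length, and for this the counts were divided by the exonic length of each gene. On the CPM per kilobase scale *Cdkn2a* was the most abundant INK4 transcript in 5 of 6 lines, at 144 to 334, and in *Nf1*/*p53* line 3 it was at 36.6, below *Cdkn2c* at 41.3. That order turned with the longest coding transcript as the length, chosen after seeing the data, which put *Cdkn2a* at 47.9 and *Cdkn2c* at 44.9 in that line, so that *Cdkn2a* was then highest in all 6. Its share of the summed INK4 counts per kilobase was 83.0, 79.2 and 35.3% in *Nf1*/*p53* dKO lines and 63.3, 81.7 and 73.4% in the *Nf1*/*Cdkn2a* dKO lines. In *Nf1*/*p53* line 3 *Cdkn2c* made up 39.8% and *Cdkn2d* 20.6%, against at most 10.2% and 5.11% in any other line. The share of *Cdkn2b* was 9.74, 10.9 and 4.27% in *Nf1*/*p53* dKO lines and 21.5, 12.2 and 13.8% in the *Nf1*/*Cdkn2a* dKO lines. These did not overlap (difference 7.51 percentage points, exact two-sided permutation p = 0.1, the smallest that 3 against 3 lines allow). The other 3 INK4 shares overlapped (exact permutation p = 0.8 to 0.9).

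The summed INK4 level without *Cdkn2a* was 62.7 to 67.1 CPM per kilobase in *Nf1*/*p53* dKO lines and 74.8 to 87.9 in the *Nf1*/*Cdkn2a* dKO lines. The genotypes did not overlap in this sum per kilobase, and the difference was not tested. They overlapped in the sum of CPM not divided by length, where *Nf1*/*p53* line 3 lay above *Nf1*/*Cdkn2a* lines 1 and 2. Per kilobase the low *Cdkn2b* and the high *Cdkn2c* and *Cdkn2d* of *Nf1*/*p53* line 3 summed to 67.1. With *Cdkn2a* included, the sum ran from 104 in that line to 409 in *Nf1*/*Cdkn2a* line 2. Relative to the summed level of *Cdk4* and *Cdk6*, INK4 transcripts stood at 3.14, 2.20 and 0.662 in *Nf1*/*p53* dKO lines and 1.78, 2.88 and 2.34 in the *Nf1*/*Cdkn2a* dKO lines. With *Cdkn2a* counted, *Nf1*/*p53* line 3 was the single line in which the INK4 sum fell below that of the kinases. Without *Cdkn2a* the sum was below that of the kinases in every line. The ratios were then 0.534, 0.458 and 0.428 in *Nf1*/*p53* dKO and 0.653, 0.527 and 0.623 in *Nf1*/*Cdkn2a* dKO lines. These are ratios of transcripts, of which those of *Cdkn2a* include ARF and alleles that were edited, and they say nothing of protein.

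**Figure D2:**
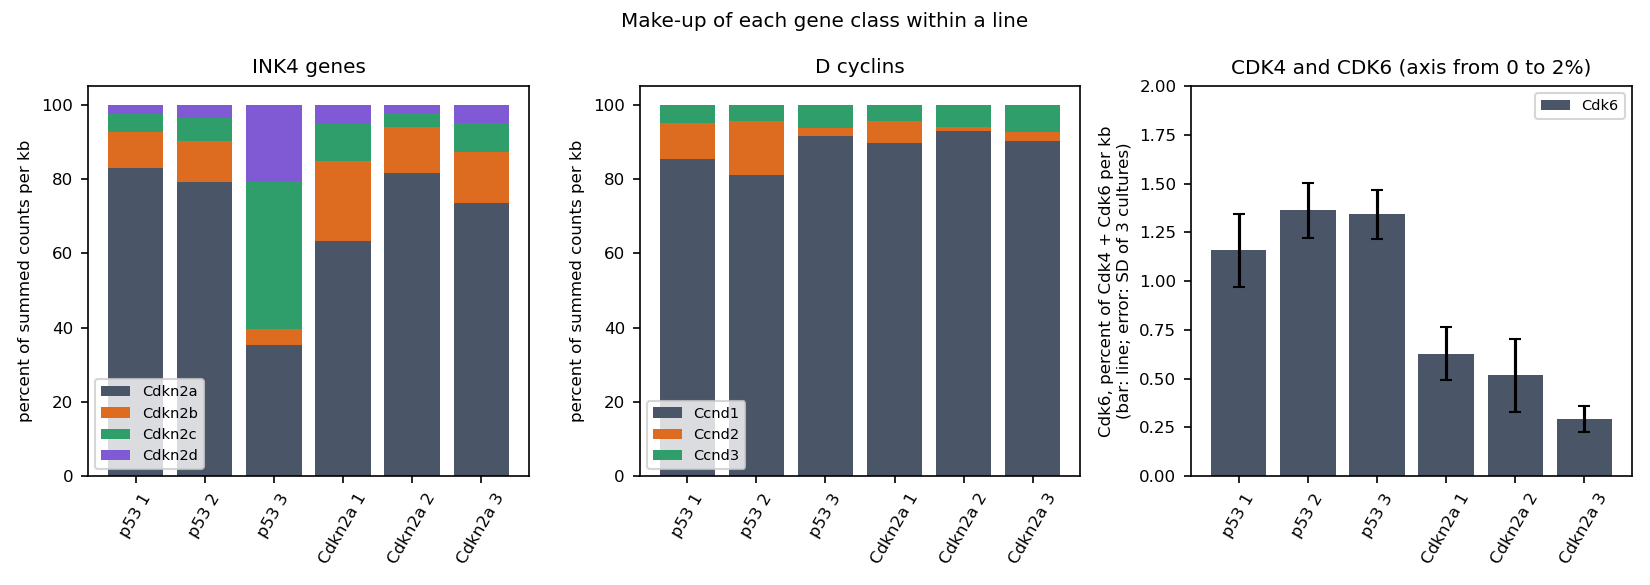
Share of each gene in the summed counts per kilobase of its class, by line: the 4 INK4 genes (left, 0 to 100%), the 3 D cyclins (middle, 0 to 100%) and *Cdk6* in the sum of *Cdk4* and *Cdk6* (right, axis to 2%, error bars are the SD of 3 cultures). *Cdkn2a* fell to 35.3% of INK4 counts in *Nf1*/*p53* line 3, and *Cdk6* was at 1.16 to 1.36% in *Nf1*/*p53* dKO lines and 0.293 to 0.628% in the *Nf1*/*Cdkn2a* dKO lines.

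Among the D cyclins, *Ccnd1* was uniformly high and *Ccnd2* varied more than any other of the 10 genes. *Ccnd1* had 1049, 1030 and 737 CPM in *Nf1*/*p53* dKO and 1081, 832 and 797 CPM in *Nf1*/*Cdkn2a* dKO lines (log2 fold change −0.056, 95% interval −0.55 to 0.44, adjusted p = 0.895). *Ccnd3* had 114, 106 and 95.7 CPM against 97.4, 99.7 and 120 CPM (log2 fold change 0.0020, 95% interval −0.34 to 0.35, adjusted p = 0.995). Both genes thus stayed within 1.47-fold over the 6 lines, and the genotypes overlapped.

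*Ccnd2* had 239, 366 and 33.1 CPM in *Nf1*/*p53* dKO and 145, 18.7 and 47.0 CPM in *Nf1*/*Cdkn2a* dKO lines. Its levels spanned 19.6-fold, a larger range than that of 96.0% of 10304 genes with a mean of at least 5 CPM, for which the median range was 1.82-fold. All 5 pairs of neighbors in the order of lines were separated, the lowest culture of the higher line lying above the highest culture of the lower one. The genotype difference was not larger than the spread between lines (log2 fold change −1.60, standard error 0.99, 95% interval −3.98 to 0.78, adjusted p = 0.387). Without *Nf1*/*p53* line 3 the genotypes did not overlap, and the log2 fold change was −2.10 (adjusted p = 0.22, edgeR's quasi-likelihood test). The share of all genes that separate without that line was not computed. The log2 fold change was −0.95 (adjusted p = 0.656) without *Nf1*/*p53* line 2 and −2.69 (adjusted p = 0.289) without *Nf1*/*Cdkn2a* line 1, by the same test.

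Per kilobase *Ccnd1* made up 81.1 to 91.6% of the D cyclin counts in *Nf1*/*p53* dKO lines and 89.7 to 93.0% in the *Nf1*/*Cdkn2a* dKO lines. The share of *Ccnd2* was 9.74, 14.4 and 2.06% against 6.01, 1.04 and 2.66% (difference −5.50 percentage points, exact two-sided permutation p = 0.3). That of *Ccnd3* was 4.33 to 7.25% over all lines (p = 0.7 by the same exact test), and 12.9 to 20.4% with the longest coding transcript as the length, since the annotation lists 21 transcripts of this gene. The summed D cyclin level was 261, 270 and 171 CPM per kilobase in *Nf1*/*p53* dKO lines and 256, 190 and 188 in the *Nf1*/*Cdkn2a* dKO lines, which is 1.09 to 2.20 times that of the kinases.

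*Cdk4* and *Cdk6* encode the catalytic partners of the D cyclins, and their transcripts behaved differently. *Cdk4* had 382, 438 and 502 CPM in *Nf1*/*p53* dKO and 414, 458 and 457 CPM in *Nf1*/*Cdkn2a* dKO lines. The genotypes overlapped, the range over lines was 1.31-fold, smaller than that of all but 9.53% of genes, and the interval of the log2 fold change, −0.36 to 0.37, was narrow beside those of the other genes except *Ccnd3* (estimate 0.0068, adjusted p = 0.983). No neighboring lines in the order of *Cdk4* levels were separated.

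*Cdk6* had 19.3, 26.1 and 29.4 CPM in *Nf1*/*p53* dKO and 11.3, 10.2 and 5.79 CPM in *Nf1*/*Cdkn2a* dKO lines. Every *Nf1*/*p53* dKO culture lay above every *Nf1*/*Cdkn2a* dKO culture. The fitted level was 2.74-fold lower in *Nf1*/*Cdkn2a* dKO (log2 fold change −1.45, standard error 0.31, 95% interval −2.21 to −0.70), with an unadjusted p of 0.00281 and an adjusted p of 0.0681 over 15207 genes in edgeR's quasi-likelihood test, which does not pass the threshold of 0.05. DESeq2 on the same 6 lines gave an adjusted p of 0.000611, and limma-voom, which took the line as a random effect over 18 cultures, gave 0.0202. With 1 line left out the log2 fold change ran from −1.63 to −1.21 (adjusted p = 0.0883 to 0.166). Without *Nf1*/*p53* line 3, which had most of the *Myod1* counts, the log2 fold change was −1.31.

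Per length the difference concerned a minor transcript. *Cdk6* stood at 1.38, 1.87 and 2.10 CPM per kilobase in *Nf1*/*p53* dKO lines and 0.805, 0.732 and 0.414 in the *Nf1*/*Cdkn2a* dKO lines, against 118 to 155 for *Cdk4*. Its share in the 2 kinases was 1.16, 1.36 and 1.34% against 0.628, 0.516 and 0.293% (difference −0.81 percentage points, exact two-sided permutation p = 0.1, the smallest possible). Counts not divided by length put *Cdk6* at 4.81 to 5.62% and 1.25 to 2.65%, again without overlap.

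*Rb1*, the substrate of these kinases, had 9.89, 9.41 and 41.4 CPM in *Nf1*/*p53* dKO and 19.2, 11.2 and 31.8 CPM in *Nf1*/*Cdkn2a* dKO lines. The highest line of each genotype was line 3, and the lowest levels were those of *Nf1*/*p53* lines 1 and 2, whose cultures overlapped. *Nf1*/*p53* line 3 was 4.29-fold above the mean of the other two lines of its genotype, and the genotype difference was small beside this spread (log2 fold change 0.038, standard error 0.68, 95% interval −1.58 to 1.65, adjusted p = 0.98). Without that line the *Nf1*/*Cdkn2a* dKO lines all lay above the remaining *Nf1*/*p53* dKO lines. The log2 fold change was then 1.11 (adjusted p = 0.239, edgeR's quasi-likelihood test). Cultures of *Nf1*/*Cdkn2a* line 2 (10.6 to 11.9 CPM) still overlapped those of *Nf1*/*p53* line 1 (9.01 to 11.2 CPM). The share of all genes whose lines separate without *Nf1*/*p53* line 3 was not computed.

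**Figure D3:**
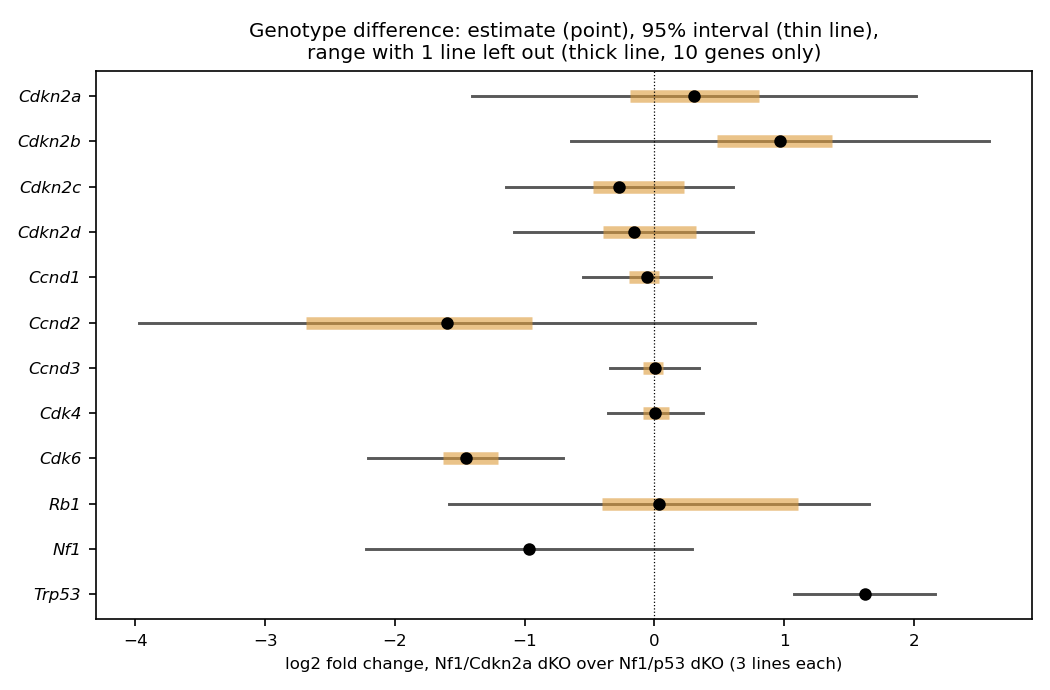
Log2 fold change of *Nf1*/*Cdkn2a* dKO over *Nf1*/*p53* dKO (horizontal axis) for the 10 genes and the targeted genes *Nf1* and *Trp53*, with 95% intervals (thin lines) and, for the 10 genes, the range when 1 line is left out (thick lines). Of the 10 genes the interval of *Cdk6* alone, −2.21 to −0.70, leaves out 0.

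Between the genotypes 0 of the 10 genes passed an adjusted p of 0.05 in edgeR's quasi-likelihood test, against 274 of all 15207 genes tested (1.8%), and 1 of them (*Cdk6*) had an unadjusted p under 0.05, against 22.4% of all genes. Lines did not overlap for 2 of the 10 (*Cdkn2b* and *Cdk6*), against 31.4% of all genes, and neither did the summed muscle progenitor markers, whose part in these 2 differences was not tested. Of the 10, 5 had positive and 5 had negative log2 fold changes, with a median of −0.027 beside −0.023 for all genes tested. DESeq2 on the 6 lines called 1 of the 10 (*Cdk6*), against 14.4% of all genes with an adjusted p, and limma-voom called 2 (*Cdkn2b* and *Cdk6*), against 16.6%. With the 18 cultures taken as separate samples edgeR called 2 (*Cdk6* and *Ccnd2*), against 46.5% of all genes, and DESeq2 called 3 (*Cdkn2b*, *Cdk6* and *Ccnd2*), against 48.9%. The counts for the 10 genes were thus near or below those shares.

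Within a genotype the lines were tested against the spread between their cultures. All 10 genes differed among the *Nf1*/*p53* dKO lines (73.2% of 14690 genes did so) and 9 of 10 among the *Nf1*/*Cdkn2a* dKO lines (56.8%), the exception being *Cdkn2b* (adjusted p = 0.448, edgeR's quasi-likelihood test). The largest fitted range among the *Nf1*/*p53* dKO lines was 3.46 on the log2 scale for *Ccnd2*, followed by 3.09 for *Cdkn2a*, 3.04 for *Cdkn2b* and 2.14 for *Rb1*. Among the *Nf1*/*Cdkn2a* dKO lines it was 2.96 for *Ccnd2*, 1.50 for *Rb1* and 1.22 for *Cdkn2a*. The smallest were 0.27 for *Ccnd3* and 0.39 for *Cdk4* in *Nf1*/*p53* dKO lines, and 0.12 for *Cdkn2b* and 0.15 for *Cdk4* in *Nf1*/*Cdkn2a* dKO lines. These tests compare single lines, each from 1 tumor. The 3 cultures of a line were plated separately, and the p-values weigh differences between lines against the spread between such cultures.

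*Nf1*/*p53* line 3 was at one end of the order of lines for most of the 10 genes. It had the highest level of the 6 lines for 5 of the 10 genes (*Cdkn2c*, *Cdkn2d*, *Cdk4*, *Cdk6* and *Rb1*) and the lowest for 4 (*Cdkn2a*, *Cdkn2b*, *Ccnd1* and *Ccnd3*), which makes 9 of 10 beside 55.3% of all genes. *Ccnd2*, the exception, was second lowest there. The same line had high *Myod1*, and the proliferation marker *Mki67* at 783 CPM against 284 to 415 CPM in the other lines. The part of either in the levels of the 10 genes was not tested.

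**Figure D4:**
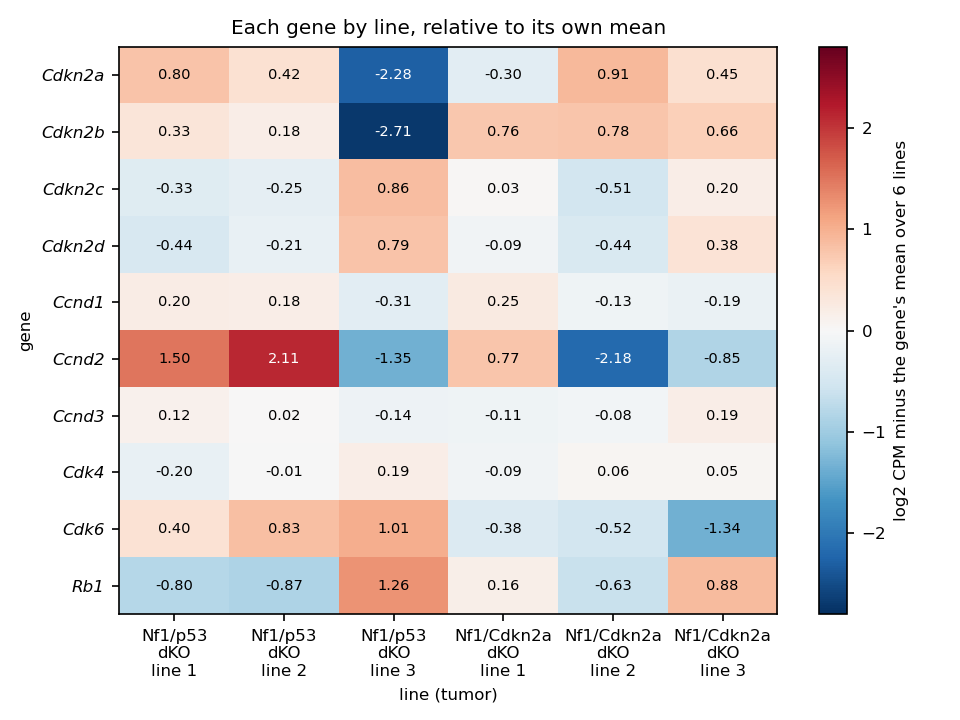
Each of the 10 genes in each line as log2 CPM minus the mean of the gene over the 6 lines (red, above; blue, below). *Nf1*/*p53* line 3 combines the lowest *Cdkn2a* (−2.28) and *Cdkn2b* (−2.71) with the highest *Rb1* (1.26), *Cdkn2c* (0.86) and *Cdkn2d* (0.79).

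Over the 18 cultures the log2 CPM of *Cdkn2a* and *Cdkn2b* had a Pearson r of 0.90, and over the 15 cultures without *Nf1*/*p53* line 3 it was −0.11. For the deviations of cultures from the mean of their own line it was 0.50. *Cdkn2c* and *Cdkn2d* (0.90 with and 0.77 without the line), *Cdkn2c* and *Rb1* (0.88 and 0.79) and *Ccnd1* and *Ccnd2* (0.85 and 0.85) changed less without the line, while within lines these pairs stood at 0.34, −0.36 and 0.12. *Cdk4* and *Ccnd1* ran against each other (−0.82 and −0.70, and −0.41 within lines). *Cdkn2a* and *Cdkn2c* went from −0.89 to −0.53 and stood at 0.59 within lines. The cultures share 6 lines and the scaling of their libraries, and these values are a description.

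For each of the 10 genes the most similar pattern among 10305 genes was sought over the 18 cultures. The 2 closest were *Anxa5* and *Cxcl12* for *Cdkn2a* (r = 0.97 and 0.96), *Sh3tc2* and *Tnk2* for *Cdkn2b* (0.99 each), *Prc1* and *Kifc1*, which encode proteins of the mitotic spindle, for *Cdkn2c* (0.95 each), and *Mat2b* and *Ldha*, the latter a lactate dehydrogenase, for *Cdkn2d* (0.92 and 0.91). Among the cyclins they were *Snhg18* and *Ccrn4l* for *Ccnd1* (0.98 and 0.92), *Tril* and the imprinted gene *Peg10* for *Ccnd2* (0.97 and 0.96) and *Mzt2* and *Fzd8* for *Ccnd3* (0.87 and 0.86). For the kinases they were *Olfm1* and *Ube2s* for *Cdk4* (0.92 and 0.90) and *Nup205*, a nuclear pore gene, and *Lphn3* for *Cdk6* (0.97 and 0.96). *Rb1* was closest to *Uevld* and *Sync* (0.96 and 0.95). None of the 10 genes was among the 2 closest to another. Each value is the highest or second highest of 10305, over 18 cultures that share 6 lines. These r were not computed without *Nf1*/*p53* line 3 or within lines, and they are a description.

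Of 57 other genes of the pathway, in 8 lists, 0 passed the adjusted threshold between genotypes (edgeR's quasi-likelihood test), beside 1.8% of all genes. An unadjusted p under 0.05 was found for 9 of them (22.4% of all genes). Of the 57, 36 were lower and 21 higher in *Nf1*/*Cdkn2a* dKO (median log2 fold change −0.14), beside 7875 lower and 7332 higher of all genes tested. Lines did not overlap for 15 of the 57, beside 31.4% of all genes. Among the 3 CIP/KIP inhibitors, which bind a broader set of CDKs, *Cdkn1a* (p21, a p53 target) had 33.0, 41.3 and 108 CPM in *Nf1*/*p53* dKO and 180, 158 and 128 CPM in *Nf1*/*Cdkn2a* dKO lines (log2 fold change 1.35, adjusted p = 0.155, standard error 0.46). *Cdkn1c* (p57) had 10.1, 14.6 and 3.17 CPM against 1.93, 0.433 and 1.22 CPM (log2 fold change −2.96, adjusted p = 0.0912, standard error 0.75). Neither gene overlapped between the genotypes, and they lay in opposite directions.

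Of 7 genes for other pocket proteins and the MuvB complex, 6 had negative log2 fold changes (median −0.35), from −0.45 for *Rbl1* (p107) to 0.37 for *Lin52*. Lines did not overlap for 0 of these 7, beside 31.4% of all genes. Of 10 E2F and DP factors, 6 were positive and 4 negative (median 0.050). *E2f2*, an activator E2F, was the lowest of them at −3.15 (standard error 1.04, adjusted p = 0.149), with 9.51, 4.58 and 75.6 CPM in *Nf1*/*p53* dKO and 2.71, 3.62 and 3.74 CPM in *Nf1*/*Cdkn2a* dKO lines, so that line 3 carried most of it. *E2f6*, a repressor, was the highest at 0.38. In the list of cyclin E, cyclin A and CDK2 (median −0.011) the range ran from 0.19 for *Ccne1* to −0.73 for *Ccna2*, which had 247, 302 and 293 CPM against 189, 141 and 179 CPM (adjusted p = 0.0779).

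The 13 S-phase genes driven by E2F had a median log2 fold change of −0.36, with 12 negative and 1 positive, and lines did not overlap for 6 of the 13, beside 31.4% of all genes. They ran from −0.60 for *Mcm7* (a subunit of the replicative helicase, adjusted p = 0.183) to 0.17 for *Rrm2* (a ribonucleotide reductase subunit), and 3 had an unadjusted p under 0.05, beside 22.4% of all genes. All 6 proliferation markers were negative (median −0.34), from −0.62 for *Bub1* to −0.013 for *Cdk1*, beside 7875 of all 15207 genes tested. Lines did not overlap for 1 of the 6, beside 31.4% of all genes. *Mki67* had 302, 353 and 783 CPM in *Nf1*/*p53* dKO and 415, 284 and 373 CPM in *Nf1*/*Cdkn2a* dKO lines. *Top2a* had 493, 522 and 854 CPM against 530, 420 and 521 CPM. *Nf1*/*p53* line 3 stood highest of the 6 lines for every proliferation marker except *Cdk1*. The lists for E2F-driven genes were chosen with a higher level of such genes in *Nf1*/*p53* dKO already known from these libraries, so their direction is no separate evidence of it.

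Around the kinases and the INK4 locus none of the regulators passed the test, beside 1.8% of all genes. The 7 genes for the CDK-activating kinase, the CDK4 chaperone and cyclin D turnover had a median of 0.14, from −0.18 for *Ccnh* to 0.29 for *Cdk7*. Of 6 Polycomb group 1 genes, which repress the INK4 locus, 5 were positive (median 0.32). *Cbx7* was the lowest at −0.87 (standard error 0.31, adjusted p = 0.168), at 7.39, 9.15 and 7.60 CPM against 5.70, 4.41 and 3.07 CPM, and *Rnf2* was the highest at 0.49. Among the *Nf1*/*p53* dKO lines 52 of the 57 genes differed, beside 73.2% of all genes, and among the *Nf1*/*Cdkn2a* dKO lines 49 did, beside 56.8%.

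**Figure D5:**
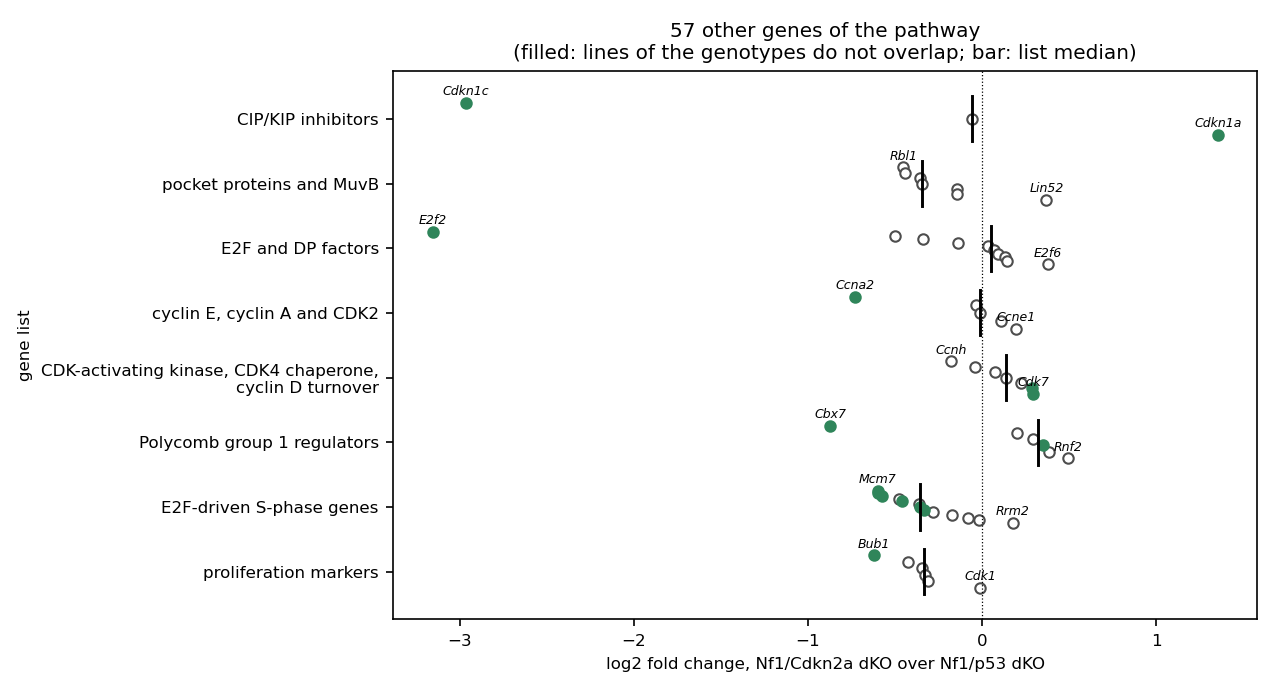
Log2 fold change between the genotypes (horizontal axis) of 57 other genes of the pathway in 8 lists, with the median of each list as a bar. Filled points are genes whose lines do not overlap between the genotypes. The S-phase genes lie mostly below 0 (median −0.36), and *Cdkn1c* (−2.96), *E2f2* (−3.15) and *Cdkn1a* (1.35) lie farthest from it.

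Some counts could include reads of an overlapping gene, since the table is not stated to use strand. Genes on the opposite strand share 23.4% of the exonic bases of *Ccnd1* (*LTO1*), 19.7% of those of *Cdk4* (*Tspan31*), 8.11% and 6.78% of those of *Rb1* (*Rcbtb2* and *Lpar6*) and at most 4.11% of those of *Ccnd3*, *Ccnd2* and *Cdk6*. The 4 INK4 genes overlap no other annotated gene. The table also lists a pseudogene of *Ccnd3* (*Ccnd3-ps*), and how reads that match both were counted is not stated.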

How the data were processed

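RNA-seq counts were analysed for 18 cultures of 6 lines. The authors deposited raw counts per gene and library, without normalization; the submitters' processing notes name CASAVA, STAR 2.5, DESeq2 1.14.1 and GRCm38 (mm10), while the counting tool, annotation and use of strand are not given in the sources used here. The study's statistics section and its methods differ in the number of biological replicates, and the labels' lines were used. Each column took genotype, line and culture from its name.

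Counts were summed per line, filtered with filterByExpr (minimum count 10, minimum total 15), scaled by TMM and tested by edgeR's quasi-likelihood method, p-values being adjusted over all genes by Benjamini-Hochberg at a threshold of 0.05 (edgeR 4.0.16, limma 3.58.1, DESeq2 1.42.0, R 4.3.3; steps tested on simulated data). Lines within a genotype were tested on 18 cultures in the same way. Shares used counts per kilobase of the union of exons in GENCODE M21 (Python 3.11.15). Correlations used log2 of CPM plus 0.5. Named genes were the 10 genes, *Nf1* and *Trp53*, and the genes called in each list with its highest and lowest. The 2 most correlated genes with a mean of at least 5 CPM were also named. *Mki67*, *Top2a*, *Myod1*, *Myf5*, *Sox10*, *Pax7*, *Ngfr*, *Krt8* and *Krt18* were named after their values were seen. A few genes of the lists are not reported here and enter no list count. The 10 genes, the lists and the tests were chosen with earlier results of these data known. Two-sided intervals cover 95%.

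Alternatives were the cultures as separate samples (edgeR, DESeq2), limma-voom with line as a random effect, DESeq2 on lines, other scalings and filters, blocks by line or culture number, lines or cultures left out and, chosen after seeing the data, the longest coding transcript as length.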

Additional observations from a re-analysis of the deposited data

How the results depend on the processing

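The count of genes called between genotypes, 274, depended on the unit of replication and the test. It was 6096 (edgeR) and 6409 (DESeq2) with the 18 cultures as separate samples, 2173 with limma-voom and the line as a random effect, 2171 with DESeq2 on 6 lines and 423 with raw total counts in place of TMM. With 1 line left out it was 0 to 172, namely 172, 27 and 107 without *Nf1*/*p53* lines 1, 2 and 3, and 0 (2668 at an unadjusted p under 0.05), 2 and 23 without *Nf1*/*Cdkn2a* lines 1, 2 and 3. Of the 10 genes, 2 (edgeR) and 3 (DESeq2) were called with cultures as samples, 2 with limma-voom and 1 with DESeq2 on 6 lines, against 0. The cause was not tested.

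The line number as a replicate block gave 0 genes (2740 at an unadjusted p under 0.05) and an adjusted p of 0.172 for *Cdk6*. Deviations of same-numbered lines from their genotype means correlated at −0.117, −0.13 and −0.0832, so the numbers do not pair lines, and those of same-numbered cultures at −0.103 to 0.155. The culture number as a replicate block left the counts of calls among lines within 1.5 times.

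Log2 fold changes near 0 changed sign. That of *Cdk4* was −0.0037 (edgeR) and −0.0034 (DESeq2) on 18 cultures, −0.039 with upper quartile scaling, −0.13 with raw totals and −0.0080 with 10 counts required in every line. That of *Ccnd3* was −0.013 (edgeR and DESeq2 alike), −0.017 (limma-voom), −0.045 (upper quartile), −0.13 (raw totals), −0.014 (10 counts in every line) and −0.00065 (replicate block). *Rb1* was at −0.014 with upper quartile scaling and −0.11 with raw totals. With 1 line left out the ranges were −0.086 to 0.11 (*Cdk4*), −0.091 to 0.065 (*Ccnd3*), −0.20 to 0.033 (*Ccnd1*), −0.41 to 1.11 (*Rb1*), −0.18 to 0.81 (*Cdkn2a*), −0.48 to 0.23 (*Cdkn2c*) and −0.40 to 0.32 (*Cdkn2d*).

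Of the shares, differences in percentage points ranged, with 1 line left out, from −0.13 to 1.33 (*Ccnd3*), −8.28 to 15.6 (*Cdkn2a*), −15.8 to 1.71 (*Cdkn2c*) and −8.02 to 1.08 (*Cdkn2d*), the INK4 signs changing without *Nf1*/*p53* line 3. The other shares kept their direction. Differences were 2.49 without *Nf1*/*p53* line 2 and 7.72 without *Nf1*/*p53* line 3 for *Ccnd1* (4.92 with all lines), −2.66 and −8.83 without the same lines for *Ccnd2* (−5.50), and 4.68 without *Nf1*/*Cdkn2a* line 1 for *Cdkn2b* (7.51).

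Among lines of a genotype, the calls of *Cdk4*, *Cdk6* and *Ccnd3* were lost in at least 1 alternative that left out a culture of every line, and that of *Cdk4* among *Nf1*/*Cdkn2a* dKO lines also without a filter (adjusted p = 0.055). With 3 lines per genotype, differences smaller than the spread between lines could not be detected, and counts carry no information on edits, INK4A against ARF, or protein.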
